A study of Mus musculus with 30 samples.

Results

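CD34+ fibroblasts (FB) of the mouse small intestine were compared with CD81+ FB of the colon by bulk RNA-seq of sorted cells, with 3 libraries of each population. These 6 libraries were chosen by their sample titles from the 30 libraries of the series, which cover 10 sorted mesenchymal populations with 3 replicates each. The cells came from 3 individual mice of the strain C57BL/6Nrj (written C57BL6/Nrj in the labels), aged 8 to 10 weeks and untreated, and no transgene or deletion is named for them. Dead cells, cells that stained for lineage markers, CD31, BP3 or EpCAM, and cells high in NCAM were removed in the sort. Small intestinal CD34+ FB were then taken as cells negative for ESAM-1, intermediate for PDGFRα and positive for CD34, a gate that by the study's account holds CD81+ FB and Igfbp5+ FB together. Colonic CD81+ FB were taken as cells negative for ESAM-1, intermediate for PDPN, positive for CD34 and negative for CD90. Since the tissues had gates of their own, and were digested on a shaker in the small intestine and with a magnetic stirrer in the colon, tissue, gate and preparation cannot be told apart. The comparison addresses how the CD34+ FB of the small intestine differ from the colonic CD34+ cells that are intermediate for PDPN and lack CD90.

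Fibroblasts lay down the extracellular matrix of the gut wall and send signals to the epithelium, vessels, nerves and immune cells next to them. Those that carry CD34 and CD81 lie below the crypts and around vessels in the submucosa, and are known as sources of the BMP antagonist gremlin 1 and of R-spondins, which help to keep epithelial stem cells in their niche. Fibroblasts also keep a record of their place along the body axis in their Hox genes, which encode transcription factors and stand in clusters in the order of the body regions that use them.

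The totals of estimated counts were 11729938, 11930055 and 9432531 in the 3 small intestinal libraries and 16181861, 18710840 and 13102446 in the 3 colonic libraries, so the colonic libraries were deeper. A count was found for 18279, 17655 and 17993 genes in the small intestine and for 15551, 15507 and 17160 genes in the colon. A single transcript without a gene in the annotation held 55.5%, 55.9% and 53.8% of the TPM of the small intestinal libraries and 20.7%, 47.6% and 39.3% of that of the colonic ones, so levels are given here as CPM, counts scaled to library size with TMM factors of the 30 libraries, as 3 values or as mean ± SD (n = 3).

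The colonic libraries stood apart from each other. Across genes, which are not independent replicates, the log2 CPM of the small intestinal libraries correlated pairwise with an r of 0.960 to 0.971, those of the colonic libraries with an r of 0.775 to 0.842. The biological coefficient of variation estimated by edgeR was 0.213 for the small intestinal replicates against 0.908 for the colonic ones. Colonic replicate 1 was the least like the small intestinal libraries (r 0.806 to 0.813), replicate 2 came next (0.829 to 0.840) and replicate 3 was the closest (0.871 to 0.881). For most gene lists, the number of genes called without colonic replicate 1 is therefore also given. Leaving out that library raised the number of genes called over all genes, from 92 to 339, and leaving out any other library did not. For only a few lists are counts without another library given too.

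The genes that name the populations were present in both. Ackr4, a scavenger receptor for CCL19, CCL21 and CCL25 (ENSMUSG00000079355, GRCm38 chr9:104084157-104126933), lay at 463, 408 and 379 CPM in the small intestinal libraries and at 355, 641 and 433 CPM in the colonic ones. The ranges overlapped, and the difference did not pass the test (log2 fold change, small intestine minus colon, -0.21 ± 0.28 SE, edgeR's quasi-likelihood test with Benjamini-Hochberg adjustment, adjusted p = 0.787). Among the 8 other populations the highest mean of Ackr4 was 19.4 ± 17.3 CPM, in colonic CD90+ FB, so the gene marked these 6 libraries. Cd34, the sialomucin used in the sort (ENSMUSG00000016494, chr1:194938819-194961279), lay at 673, 647 and 556 CPM in the small intestine and at 1342, 1047 and 843 CPM in the colon. All 3 colonic values of Cd34 were above all 3 small intestinal ones, but the difference did not pass the test (-0.80 ± 0.25 SE, edgeR adjusted p = 0.216). Cd81, a tetraspanin (ENSMUSG00000037706, chr7:143052739-143067934), lay at 174, 103 and 86.2 CPM in the small intestine and at 401, 445 and 278 CPM in the colon. Its colonic values were again the higher ones without overlap, with an edgeR adjusted p of 0.0867 (-1.65 ± 0.35 SE). Cd81 had a mean of 31.5 ± 28.8 CPM in colonic CD90+ FB and of 199 ± 22.1 CPM in colonic pericytes.

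Of the genes behind the gates, Pdgfra, the receptor of PDGF-A, lay at 883, 820.0 and 754 CPM in the small intestine against 995, 1076 and 716 CPM in the colon, with overlap. Pdpn, which encodes podoplanin, lay at 44.1, 34.95 and 41.8 CPM and 60.8, 31.1 and 29.7 CPM, also with overlap, and the sign of its log2 fold change of -0.02, like that of Pdgfra (-0.19) and of Ackr4, flips with upper-quartile normalization. Thy1, which encodes CD90 (ENSMUSG00000032011, chr9:44043384-44048579), lay at 1.51, 2.52 and 5.98 CPM in the small intestine and at 124, 115 and 59.4 CPM in the colon. Although the colonic cells were sorted as CD90-negative, each colonic library held more Thy1 RNA than each small intestinal one (-4.91 ± 0.64 SE, edgeR adjusted p = 0.0249). In colonic CD90+ FB the mean was 196 ± 50.2 CPM. Of 12 tested sorting genes Thy1 was the one called, for the colon (against 0.321% of all genes), and the list had a median log2 fold change of -0.11, as all genes did (-0.11).

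Of 15262 genes tested between the populations, 92 (0.603%) were called with edgeR, which asks for an adjusted p below 0.05 together with a log2 fold change beyond 1.5 in either direction. Higher in small intestinal CD34+ FB were 43 genes (0.282%), led in level by Sfrp1, Rgs5 and C4b, and higher in colonic CD81+ FB were 49 (0.321%), led by Col8a1, Cd55 and Creb5. In each of the 92 the 3 values of one population lay above the 3 of the other. Such separation is common here, since 2131 genes (13.96% of those tested) separated with the small intestine above and 1562 (10.2%) with the colon above. For 268 and 31 of these, with fewer than 6 counts in each library of the other population, the filter left hardly any other order. An exact permutation test of 3 libraries against 3 cannot go below p = 0.10, so the calls rest on the spread that edgeR estimates across genes.

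The number of calls moved with the tool and with single libraries. DESeq2 called 745 genes (4.88%), among them all 92. Without colonic replicate 1, edgeR called 339 of 15121 genes (2.24%), among them 89 of the 92, while the other 3 (Hoxd13, Hoxa10 and Sfrp2) could not be tested: the filter asks for 6 counts in 3 libraries, and without one colonic library a gene nearly absent from the small intestine cannot meet it. The 339 were 209 for the small intestine (1.38%) and 130 for the colon (0.86%), shares against which the list counts without colonic replicate 1 are to be read. Without colonic replicate 2 the count fell to 37, with 30 of the 92 kept and 59 lost, and without replicate 3 it was again 92, but with 53 kept and 36 lost. The same 3 could not be tested. Leaving out small intestinal replicate 1, 2 or 3 gave 0, 0 and 4 calls with edgeR, with 922, 873 and 932 genes at an unadjusted p below 0.05, against 2179 with all 6 libraries. No other tool was run without those libraries. So nearly every call below needs all 3 small intestinal libraries. The median log2 fold change of all genes was -0.11, and 0.12 with upper-quartile normalization, so medians of lists are set against it. They are the same with genes at 0 in a population set to their bound.

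**Figure D1:**
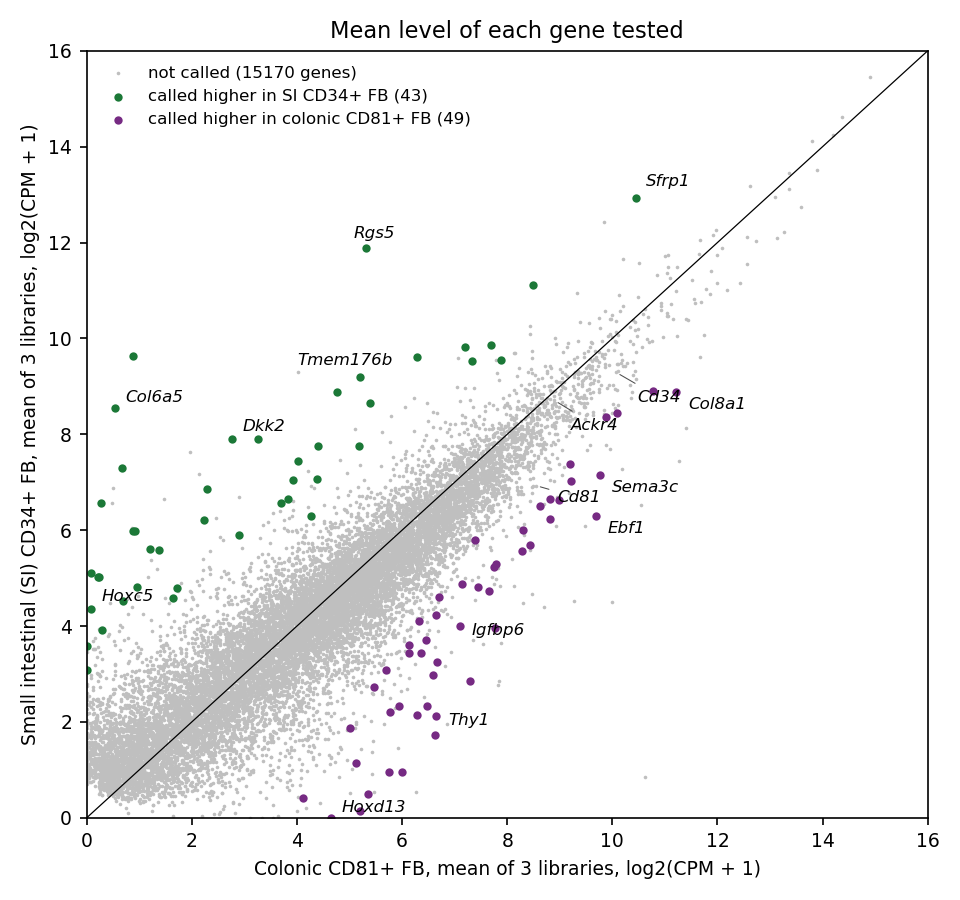
Mean level of each of the 15262 genes tested, in log2(CPM + 1), in colonic CD81+ FB (x axis) and small intestinal CD34+ FB (y axis), 3 libraries each. The 43 genes called higher in the small intestine are green, the 49 called higher in the colon are purple, and the line marks equal levels. Ackr4, Cd34 and Cd81 are not among the called genes.

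Genes of adventitial FB leaned to the colonic population. Called higher in the colon were, among others, Sema3c, a secreted guidance protein, Cd55, an inhibitor of complement, Tek, the receptor of angiopoietins, and Anxa3, a calcium-dependent membrane protein. Of the 23 genes of this list, all tested, 8 were called, each with the colon higher (against 0.321% of all genes), and 16 separated with the colon above (against 10.2%). The median log2 fold change of the list was -1.84, against -0.11 for all genes, and all 23 values were below 0. With upper-quartile normalization 21 of 23 were below 0. The list had 11 calls without colonic replicate 1 (against 0.86% of all genes in that fit), 4 without replicate 2 (against 14 of 15048) and 6 without replicate 3 (against 38 of 14862). Summed over the list, the small intestinal libraries held 10532, 8689.7 and 8829 CPM and the colonic ones 22545, 20506 and 21916 CPM. The list was chosen with earlier results of these data known. The small intestinal gate holds Igfbp5+ FB besides CD81+ FB, so tissue and the share of CD81+ FB cannot be told apart here.

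Sema3c (ENSMUSG00000028780, chr5:17574281-17730268) lay at 134, 143 and 144 CPM in the small intestine and at 1012, 831 and 757 CPM in the colon. The colonic values were all several times the small intestinal ones (-2.64 ± 0.24 SE, edgeR adjusted p = 0.0113). Cd55 (chr1:130439027-130462744) lay at 495, 530.5 and 414 CPM against 2262, 1368 and 1608 CPM in the colon, again without overlap (-1.88 ± 0.27 SE, edgeR adjusted p = 0.0325). Tek was at 54.99, 46.95 and 37.6 CPM in the small intestine against 334, 323 and 271 CPM in the colon, with close values within each population (-2.75 ± 0.27 SE, edgeR adjusted p = 0.0124). Anxa3 was low in the small intestine, at 3.11, 4.78 and 4.17 CPM, and lay at 145, 57.7 and 59.8 CPM in the colon (-4.46 ± 0.53 SE, edgeR adjusted p = 0.0178). Colonic replicate 1 held the most Anxa3, and the lowest colonic value was far above the highest small intestinal one. The other called genes of the list were Efhd1, which encodes a calcium-binding protein of mitochondria (-6.05), Igfbp6, which binds insulin-like growth factors (-3.19), Pcolce2, an enhancer of procollagen processing (-2.39), and Mfap5, a glycoprotein of microfibrils (-1.84).

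Genes known best from adventitial FB did not all pass. Pi16, which encodes peptidase inhibitor 16, lay at 35.6, 33.7 and 15.9 CPM in the small intestine and at 148, 372 and 121 CPM in the colon, a separation with an edgeR adjusted p of 0.0674. Dpp4, a membrane peptidase, showed the same order at lower levels, with 1.13, 1.13 and 0.534 CPM against 16.8, 17.03 and 5.34 CPM (edgeR adjusted p = 0.0773). Grem1, which encodes gremlin 1 (chr2:113746164-113758646), lay at 1239, 996 and 881 CPM in the small intestine and at 2272, 1677 and 2051 CPM in the colon (-0.96 ± 0.24 SE, edgeR adjusted p = 0.129). Both populations thus held Grem1, and the means of the 8 others reached at most 394 ± 182 CPM (colonic CD90+ FB). Rspo3, which encodes an R-spondin (chr10:29452416-29535867), had 97.1, 95.6 and 81.5 CPM in the small intestine but 9.51, 41.7 and 4424 CPM in the colon. Colonic replicate 3 alone carried the high Rspo3 value, the other two colonic libraries were below all small intestinal ones, and without replicate 3 the log2 fold change turned from -4.03 to 1.82.

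Genes of pericryptal FB, the second kind of cell in the small intestinal gate, were called in both directions. Of 12 tested genes, Sfrp1 was called higher in the small intestine (against 0.282% of all genes) and Thy1 higher in the colon (against 0.321%), 4 separated with the small intestine above (against 13.96%) and 2 with the colon above (against 10.2%). The median was 0.77. Both limma and edgeR without colonic replicate 1 called 3 for the small intestine and 1 for the colon. Of all genes limma called 56 and 118 of 15262, and edgeR without that library 1.38% and 0.86%. The list summed to 18472, 21029 and 16603 CPM in the small intestinal libraries and to 7154, 4592 and 3544 CPM in the colonic ones, without overlap. Igfbp5, a binding protein of insulin-like growth factors (chr1:72857932-72874884), lay at 932, 1146 and 1176 CPM in the small intestine and at 543, 374 and 114 CPM in the colon. The small intestinal values were higher, the colonic ones fell far apart, and the test was not passed (1.64 ± 0.51 SE, edgeR adjusted p = 0.215). Adamdec1, a secreted metalloprotease, lay at 4963, 6126 and 5508 CPM against 2333, 298 and 101 CPM, and colonic replicate 1 held most of the colonic signal (edgeR adjusted p = 0.31, 0.0192 without that library and 0.194 to 0.865 without any other). Fbln1, a glycoprotein of elastic fibres, lay at 3451, 3095 and 2652 CPM against 1028, 1666 and 1692 CPM (edgeR adjusted p = 0.128, and 0.0871 without colonic replicate 1). In bulk libraries, a smaller share of cells of one kind and less RNA per cell cannot be told apart.

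**Figure D2:**
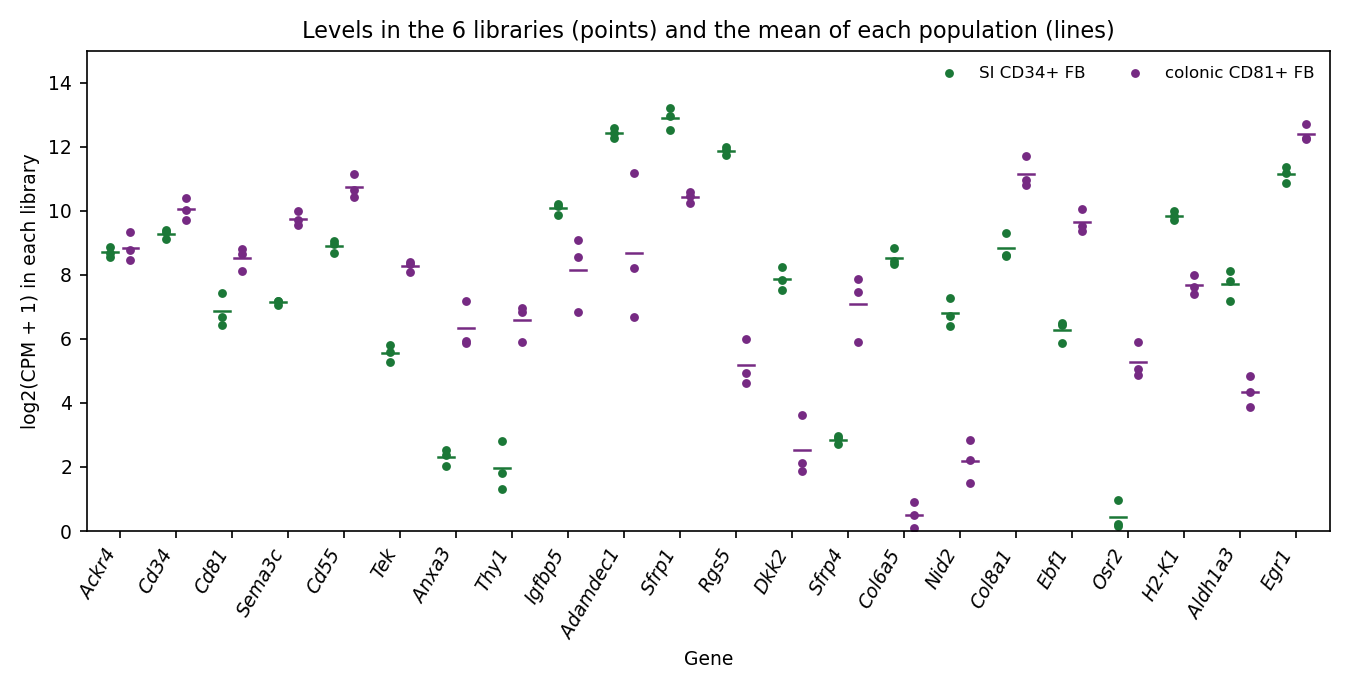
Level of 22 genes, in log2(CPM + 1) on the y axis, in each of the 3 small intestinal CD34+ FB libraries (green) and the 3 colonic CD81+ FB libraries (purple), with a line at the mean of each population. Ackr4 overlaps between the populations, and the colonic points of Igfbp5 and Adamdec1 lie farther apart than the small intestinal ones.

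Hox genes at the front of the A and C clusters separated with the small intestine above, though few passed the test, and those of the B cluster did not separate. At the back of the A and D clusters the colon was above, but most of these genes were tested through the colonic libraries alone. Of 39 Hox genes 29 were tested, and 4 were called (against 0.603% of all genes), Hoxc4 and Hoxc5 with the small intestine higher and Hoxa10 and Hoxd13 with the colon higher. Of the 20 tested genes of paralogue groups 1 to 8, 15 had a log2 fold change above 0 (18 of all 29 Hox genes did with upper-quartile normalization, against 16) and 11 separated with the small intestine above (against 13.96% of all genes) and 1 with the colon above. All 7 HoxA and all 4 HoxC genes among them had the small intestine above, with 0 of the 7 and 2 of the 4 called, while none of the 8 HoxB genes separated, 4 of them with a log2 fold change above 0 and 4 below. Of the 9 tested genes of groups 9 to 13, 8 were below 0 and 7 separated with the colon above (against 10.2%), and of the 4 HoxA and the 4 HoxD genes among them 1 each was called. Of these 9, however, 5 had fewer than 6 counts in each small intestinal library, so the filter admitted them only because all 3 colonic libraries held more, and of the other 4 genes 2 separated. Likewise 3 of the 20 front genes were tested through the small intestine alone, and of the other 17, 8 separated with the small intestine above. Of the 4 called genes, Hoxc5 was among these 3 front genes, and Hoxa10 and Hoxd13 were among the 5 back genes. The filter thus left these called genes hardly any other order. DESeq2 called 8 genes of the front groups for the small intestine and 8 of the back groups for the colon (against 427 and 318 of all 15262 genes). The same 3 front and 5 back genes were among them. The front and back genes cancel in the median of the whole list (0.37).

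Hoxd13 (ENSMUSG00000001819, chr2:74668310-74671599) had no count in any small intestinal library and lay at 25.9, 17.8 and 28.6 CPM in the colon. Set against 3 counts per library, Hoxd13 was at least 83.8-fold higher in the colon (edgeR adjusted p = 0.0182). Hoxa10 (chr6:52231197-52240854) had 0.0943, 0 and 0.214 CPM in the small intestine against 67.5, 29.8 and 9.41 CPM in the colon, with the widest gap between colonic replicates 1 and 3 (edgeR adjusted p = 0.0325). Hoxa13 and Hoxa11, without a count in the small intestine, lay at 7.49, 3.38 and 16.4 CPM and at 8.78, 1.97 and 11.95 CPM in the colon, and missed the threshold (edgeR adjusted p = 0.066 and 0.0756). Present in each colonic library, both varied several-fold among them. Their neighbour Hoxa9 (1.04, 0.435 and 0.321 CPM against 6.29, 20.8 and 15.1 CPM) and, in the D cluster, Hoxd9 (1.13, 1.04 and 0.748 CPM against 5.32, 40.1 and 6.19 CPM) and Hoxd11 (0.377, 0.435 and 0.214 CPM against 29.5, 2.09 and 13.8 CPM) were separated the same way, with edgeR adjusted p of 0.066, 0.12 and 0.0782. Hoxc5 (chr15:102967443-103017429) lay at 16.9, 19.1 and 22.3 CPM in the small intestine and at 0.161, 0 and 0 CPM in the colon, where it was all but absent (edgeR adjusted p = 0.029). Hoxc4 lay at 34.1, 68.9 and 41.03 CPM against 2.26, 0.369 and 1.27 CPM, a clear gap in each pair of libraries (5.2 ± 0.75 SE, edgeR adjusted p = 0.0344). Hoxc8 (56.97, 54.3 and 83.5 CPM against 0.403, 0 and 2.03 CPM) and Hoxa5 (23.7, 30.5 and 16.8 CPM against 0.161, 0.123 and 2.63 CPM) separated in the same way without passing the test (edgeR adjusted p = 0.0704 and 0.142). Hoxb3 lay at 59.6, 79.3 and 47.7 CPM and 128, 44.9 and 38.4 CPM, with overlap, and the sign of its log2 fold change of -0.20 flips with upper-quartile normalization. Only 23 Hox genes could be tested without colonic replicate 1, of which 6 were called for the small intestine and 2 for the colon (against 1.38% and 0.86%). Without colonic replicate 2 or 3 the calls for the small intestine were 0 and 2 (against 23 of all 15048 and 54 of all 14862 genes). Hoxd13 and Hoxa10, the 2 called for the colon with all 6 libraries, could not be tested without any one colonic library.

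**Figure D3:**
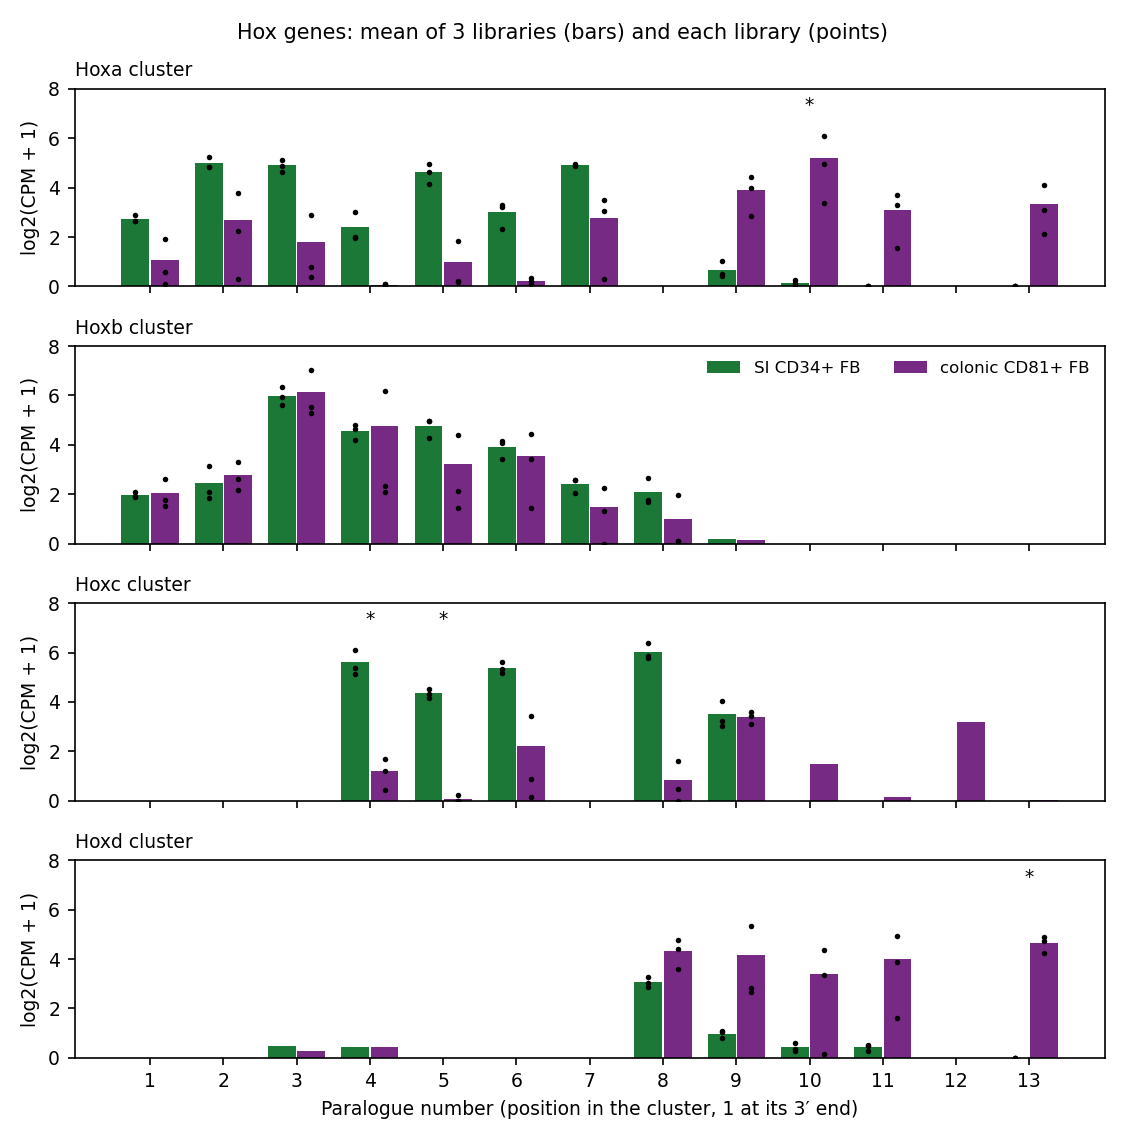
Mean level of each Hox gene, in log2(CPM + 1), by cluster (panels) and paralogue number (x axis), in small intestinal CD34+ FB (green) and colonic CD81+ FB (purple), with points for the 3 libraries of each population where the gene was tested and an asterisk on the 4 called genes. Green bars dominate the front of the A and C clusters and purple bars the back of the A and D clusters.

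Other transcription factors of position and of mesenchyme differed gene by gene. Of 48 tested, 2 were called, both higher in the colon (against 0.321% of all genes), 8 separated with the small intestine above (against 13.96%) and 11 with the colon above (against 10.2%), and the median was -0.22. Leaving out colonic replicate 1 gave 3 calls for the small intestine and 6 for the colon, of 47 tested (against 1.38% and 0.86% of all genes in that fit). Ebf1, an early B-cell factor that is also active in mesenchyme (ENSMUSG00000057098, chr11:44617317-45008091), lay at 84.99, 89.7 and 58.02 CPM in the small intestine and at 1059, 734 and 665 CPM in the colon. All colonic values were well above all small intestinal ones (-3.41 ± 0.32 SE, edgeR adjusted p = 0.0113). Osr2, an odd-skipped related zinc finger factor, lay at 0.943, 0.174 and 0.107 CPM against 32.3, 58.9 and 28.3 CPM (-6.58 ± 0.90 SE, edgeR adjusted p = 0.0308), present in the colon and nearly absent from the small intestine. Ebf3 (0.377, 1.304 and 0.962 CPM against 3.87, 62.02 and 59.5 CPM) and Twist1, a factor of mesenchyme formation (0.0943, 0 and 0 CPM against 4.35, 7.44 and 22.6 CPM), were separated, varied among the colonic libraries and missed the threshold (edgeR adjusted p = 0.0769 and 0.0500004). Twist1 was tested through the colonic libraries alone, so the filter left it hardly any other order. Pitx1, known from hindlimb patterning, lay at 5.47, 6.87 and 9.19 CPM in the small intestine and at 94.1, 34.2 and 7.97 CPM in the colon, where replicate 1 was high and replicate 3 reached down into the small intestinal range.

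Secreted and membrane-bound inhibitors of Wnt signalling differed in both directions. The frizzled-related protein Sfrp1, the dickkopf protein Dkk2, and Shisa2 and Shisa3, which hold back frizzled and FGF receptors in the cell, were higher in the small intestine, while Sfrp2 and Sfrp4 were higher in the colon. Of 19 tested antagonists 6 were called, 4 for the small intestine (against 0.282% of all genes) and 2 for the colon (against 0.321%), 9 separated with the small intestine above (against 13.96%) and 3 with the colon above (against 10.2%), and the median was 0.86 against -0.11 for all genes. Of the called genes, Shisa2 was tested through the small intestine alone and Sfrp2 through the colon alone, so the filter left them hardly any other order. Without colonic replicate 1, of 18 tested, 6 were called for the small intestine and 1 for the colon (against 1.38% and 0.86%), with Sfrp2 the gene not tested. The calls for the small intestine fell to 1 without colonic replicate 2 (against 23 of all 15048 genes in that fit) and were 4 without replicate 3 (against 54 of 14862).

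Sfrp1 (ENSMUSG00000031548, chr8:23411502-23449632) lay at 7925, 9432 and 5897 CPM in the small intestine and at 1412, 1548 and 1216 CPM in the colon, abundant in both and higher in each small intestinal library (2.46 ± 0.25 SE, edgeR adjusted p = 0.0131). Dkk2 (chr3:132085292-132180304) lay at 304, 229 and 182 CPM against 2.66, 3.38 and 11.3 CPM, with colonic replicate 3 the highest of the colon (5.37 ± 0.64 SE, edgeR adjusted p = 0.0182). Shisa2 (24.7, 37.6 and 31.8 CPM against 0.242, 0.123 and 0.170 CPM) and Shisa3 (367, 349 and 483 CPM against 26.8, 30.2 and 66.1 CPM) had edgeR adjusted p values of 0.0113 and 0.0229. Shisa2 was close to absent from the colon, while Shisa3 was present in both populations. Sfrp4 (chr13:19623104-19632994) went the other way, with 6.41, 5.56 and 6.84 CPM in the small intestine against 174, 235 and 58.99 CPM in the colon (-4.65 ± 0.56 SE, edgeR adjusted p = 0.0189). Sfrp2 had 0.283, 0.261 and 0.427 CPM in the small intestine against 22.6, 18.4 and 8.14 CPM in the colon (-5.64 ± 0.75 SE, edgeR adjusted p = 0.0283), so that it was detected well only in the colonic libraries of these 6.

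Of the Wnt ligands and R-spondins themselves, 11 were tested and edgeR called 0 (against 0.603% of all genes). The median log2 fold change of the list was -1.01, against -0.11 for all genes, and 8 of 11 were below 0. At an unadjusted p below 0.05 stood 1 with the small intestine higher and 2 with the colon higher (against 14.28% of all genes in either direction). DESeq2 called 1 and limma 1, each with the colon higher (against 318 and 118 of all 15262 genes). Wnt2b, a ligand of canonical signalling, lay at 606, 662 and 504 CPM in the small intestine and at 341, 361 and 173 CPM in the colon (edgeR adjusted p = 0.232). Wnt5a, a ligand of non-canonical signalling, lay at 32.5, 34.3 and 40.6 CPM against 92.9, 49.9 and 72.1 CPM (edgeR adjusted p = 0.252). The populations separated for both genes, Wnt2b with the small intestine above and Wnt5a with the colon above. Of the 11 genes, 2 separated with the small intestine above (against 13.96% of all genes) and 2 with the colon above (against 10.2%). Wnt2 was under 1 CPM in each small intestinal library (0.0943, 0.174 and 0.427) and lay at 4.59, 51.2 and 6.53 CPM in the colon, where replicate 2 exceeded the other two several-fold (edgeR adjusted p = 0.0765). It was tested through the colonic libraries alone.

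Among other growth factors, 1 gene was called in each direction of 39 tested (against 0.282% and 0.321% of all genes), and the median of the list was -0.63. Of 38 tested without colonic replicate 1, 3 were called in each direction (against 1.38% and 0.86%). Ereg, which encodes the EGF-family ligand epiregulin (chr5:91074622-91093646), lay at 142, 112 and 145 CPM in the small intestine and at 16.9, 25.1 and 17.2 CPM in the colon. The small intestinal values were several times the colonic ones (2.74 ± 0.32 SE, edgeR adjusted p = 0.0178). Igf1, insulin-like growth factor 1 (chr10:87858265-87937042), lay at 386, 256 and 348 CPM against 938, 926 and 975 CPM. Igf1 was higher in every colonic library, and these agreed closely among themselves (-1.53 ± 0.24 SE, edgeR adjusted p = 0.0456).

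Single components of the matrix differed, in both directions. The collagen VI chains Col6a5 and Col6a4 were higher in small intestinal CD34+ FB, and Col8a1, a chain of the network-forming collagen VIII, was higher in colonic CD81+ FB. Of 40 tested collagen genes these 3 were called (against 0.603% of all genes), 10 separated with the small intestine above (against 13.96%) and 2 with the colon above (against 10.2%), and the median was 0.08. Of 56 tested genes of matrix and elastic fibres 5 were called (against 0.603%), and the median was -0.31. In the fit without colonic replicate 1, 4 collagen genes were called for the small intestine and 1 for the colon, and 5 matrix genes in each direction (against 1.38% and 0.86%).

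Col6a5 (ENSMUSG00000091345, chr9:105856078-105960643) lay at 343, 324 and 452 CPM in the small intestine and at 0.886, 0.0615 and 0.424 CPM in the colon, abundant in one population and at or below 1 CPM in the other (9.69 ± 0.76 SE, edgeR adjusted p = 0.0113). Col6a4 lay at 30.1, 17.9 and 33.8 CPM against 1.37, 0.799 and 0.678 CPM (edgeR adjusted p = 0.0229). Col8a1 (chr16:57624258-57754737) lay at 628, 395 and 382 CPM in the small intestine and at 1986, 1786 and 3327 CPM in the colon, with the lowest colonic value above the highest small intestinal one (-2.35 ± 0.34 SE, edgeR adjusted p = 0.0334). Nid2, which encodes nidogen 2, a protein of basement membranes, lay at 83.9, 103 and 155 CPM against 1.85, 3.63 and 6.10 CPM (edgeR adjusted p = 0.0155), and Lama1, a laminin chain named for its large fold, at 49.9, 62.2 and 74.2 CPM against 0.886, 0.369 and 1.44 CPM (edgeR adjusted p = 0.0129). Spon1, which encodes the adhesion protein spondin 1, lay at 887, 699 and 623 CPM against 162, 147 and 169 CPM, with the colonic libraries close together (2.2 ± 0.24 SE, edgeR adjusted p = 0.0148). Higher in the colon were Emilin2, an elastic fibre glycoprotein (8.55 ± 2.92 CPM against 101 ± 61.4 CPM, edgeR adjusted p = 0.0383), and Has2, a hyaluronan synthase (12.04 ± 2.47 CPM against 86.6 ± 42.2 CPM, edgeR adjusted p = 0.0465). Fbn1 (4361 ± 715 CPM against 8935 ± 1065 CPM) and Fn1 (4786 ± 531 CPM against 9812 ± 432 CPM), which encode fibrillin 1 and fibronectin, separated with the colon above but missed the threshold (edgeR adjusted p = 0.0853 and 0.0673).

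Of 34 tested proteases and inhibitors 2 were called, both higher in the colon (against 0.321% of all genes), and the median was -0.08. With colonic replicate 1 left out, 4 were called in each direction (against 1.38% and 0.86%). Adamts5, a protease of aggrecan and versican, lay at 113, 93.8 and 91.6 CPM in the small intestine and at 523, 502 and 329 CPM in the colon (-2.19 ± 0.28 SE, edgeR adjusted p = 0.0232). Fap, which encodes fibroblast activation protein, lay at 43.6, 33.8 and 37.4 CPM against 326, 211 and 120.1 CPM (-2.53 ± 0.40 SE, edgeR adjusted p = 0.0485). Both genes were several times higher in the colon, and Fap varied more among the colonic libraries.

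Single genes of immune signalling were called, 4 for the small intestine and 1 for the colon over 3 lists (against 0.282% and 0.321% of all genes). Cxcl16, a membrane-bound chemokine, Il1rl2, the receptor of IL-36, Tnfrsf19, a receptor of the TNF family, and C4b, a complement component, were higher in the small intestine. Of 27 tested chemokines and chemokine scavengers Cxcl16 was the one called (median -0.17, with 16 of 27 below 0), of 49 cytokines and receptors Il1rl2 and Tnfrsf19 (median 0.39), and of 24 complement genes C4b for the small intestine and Cd55 for the colon (median 0.54). Chemokines had 2 calls in each direction, of 25 tested, without colonic replicate 1, cytokines and receptors 4 for the small intestine and 1 for the colon, and complement genes 1 in each direction (against 1.38% and 0.86%). Cxcl16 (chr11:70453983-70459984) lay at 96.6, 100.3 and 85.5 CPM in the small intestine and at 12.2, 13.8 and 9.66 CPM in the colon, evenly in both (2.97 ± 0.33 SE, edgeR adjusted p = 0.0148). Il1rl2 lay at 147, 143 and 101 CPM against 17.3, 10.8 and 14.4 CPM (edgeR adjusted p = 0.0148) and Tnfrsf19 at 32.7, 32.3 and 30.1 CPM against 0.403, 0 and 0.0848 CPM (edgeR adjusted p = 0.031). Tnfrsf19 was even across the small intestine and nearly absent from the colon. It was tested through the small intestine alone, so the filter left it hardly any other order. C4b (chr17:34728380-34743882) lay at 2469.8, 2271 and 1865 CPM against 416, 471 and 196 CPM (2.59 ± 0.36 SE, edgeR adjusted p = 0.0317). C7, a component of the membrane attack complex, had 539, 391 and 283 CPM in the small intestine against 138, 97.4 and 29.8 CPM in the colon, separated but not past the threshold (edgeR adjusted p = 0.137). Ccl11, the chemokine eotaxin, overlapped at 319, 389.5 and 273 CPM and 382, 461 and 669 CPM.

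Genes induced by interferon and genes of the MHC leaned to the small intestine, though few passed on their own. All 48 genes of this list were tested, 42 had a log2 fold change above 0 (43 with upper-quartile normalization), and the median was 1.45 against -0.11 for all genes. In 34 genes the small intestinal libraries were above the colonic ones (against 13.96% of all genes) and in 1 below. H2-K1 was the one called by edgeR (against 0.282% of all genes), while DESeq2 called 13 and limma 3, all higher in the small intestine. Of all 15262 genes, DESeq2 called 427 in that direction and limma 56. Without colonic replicate 1, 2 or 3, edgeR called 6 (against 1.38% of all genes in that fit), 1 (against 23 of 15048) and 5 (against 54 of 14862), all in the same direction. The list summed to 9641, 6941 and 7325 CPM in the small intestine and to 3313, 3353 and 2509.6 CPM in the colon, with B2m the most abundant gene in both.

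H2-K1, a classical MHC class I heavy chain (ENSMUSG00000061232, chr17:33996017-34000347), lay at 1018, 845 and 909 CPM in the small intestine and at 198, 255 and 168 CPM in the colon, with a wide gap between the populations (2.15 ± 0.25 SE, edgeR adjusted p = 0.0178). H2-Q7, a class I gene outside the list that was named for a call in every FB pair, lay at 205, 239 and 204 CPM against 25.9, 46.1 and 33.6 CPM (edgeR adjusted p = 0.0178). B2m, the light chain of class I molecules, lay at 3833, 2916 and 2983 CPM against 1554, 1174 and 803 CPM, separated but not past the threshold (1.45 ± 0.29 SE, edgeR adjusted p = 0.0776). Psmb9, a subunit of the immunoproteasome, had 54.4, 36.8 and 30.7 CPM in the small intestine against 0.564, 0.246 and 3.22 CPM in the colon (edgeR adjusted p = 0.0756). Oas1g, an interferon-induced synthetase, had 7.26, 12.96 and 12.7 CPM in the small intestine and no count in the colon, at least 48.4-fold against 3 counts per library (edgeR adjusted p = 0.0357). It was tested through the small intestine alone, so the filter left it hardly any other order. Oas1g is uncertain, since 55.1% of its 31-base stretches occur in other genes.

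Since genes of this list leaned one way together, their promoters were searched for GAAANNGAAA, the core of the interferon-stimulated response element, on both strands. RefSeq windows of GRCm38.p6, 250 bases before to 50 after the start of a gene, were found for 35 of the 48 genes. The motif stood in 19 of them (54.3%), and in 943 of the first windows of all 27025 genes (3.49%). Genes were put on the list as induced by interferon or as MHC genes, so this share does not bear on the tissue difference. The windows of 4 genes are shown, 5′ to 3′ on the strand of the gene, because they differ in the number of matches, with matches in capitals: Ifit1 (chr19:34640639-34640938, + strand) with 2, Isg15 (chr4:156200769-156201068, - strand) with 3 that overlap, B2m (chr2:122147437-122147736, + strand) with 1 and the called gene H2-K1 (chr17:34000298-34000597, - strand) with 0. A match describes the letters of the window and shows no binding.
Ifit1: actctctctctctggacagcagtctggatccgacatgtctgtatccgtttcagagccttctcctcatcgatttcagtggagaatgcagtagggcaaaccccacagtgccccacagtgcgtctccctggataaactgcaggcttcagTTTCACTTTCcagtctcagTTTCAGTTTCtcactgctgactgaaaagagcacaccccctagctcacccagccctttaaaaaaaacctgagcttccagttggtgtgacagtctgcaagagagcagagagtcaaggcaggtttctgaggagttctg
Isg15: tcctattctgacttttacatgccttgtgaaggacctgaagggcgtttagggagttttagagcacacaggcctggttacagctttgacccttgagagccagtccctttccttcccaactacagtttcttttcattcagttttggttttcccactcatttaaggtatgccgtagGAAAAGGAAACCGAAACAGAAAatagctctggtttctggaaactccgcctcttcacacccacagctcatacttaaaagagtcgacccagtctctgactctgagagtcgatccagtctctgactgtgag
B2m: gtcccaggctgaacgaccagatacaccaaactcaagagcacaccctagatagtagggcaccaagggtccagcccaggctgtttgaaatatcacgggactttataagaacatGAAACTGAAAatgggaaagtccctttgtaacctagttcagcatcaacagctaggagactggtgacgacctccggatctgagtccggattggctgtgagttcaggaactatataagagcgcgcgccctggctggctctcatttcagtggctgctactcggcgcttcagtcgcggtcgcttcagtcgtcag
H2-K1: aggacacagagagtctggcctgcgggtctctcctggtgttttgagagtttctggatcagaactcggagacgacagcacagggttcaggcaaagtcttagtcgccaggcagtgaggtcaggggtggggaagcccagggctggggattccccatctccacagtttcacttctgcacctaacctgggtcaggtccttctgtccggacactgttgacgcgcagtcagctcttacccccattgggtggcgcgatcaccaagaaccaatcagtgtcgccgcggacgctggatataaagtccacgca

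**Figure D4:**
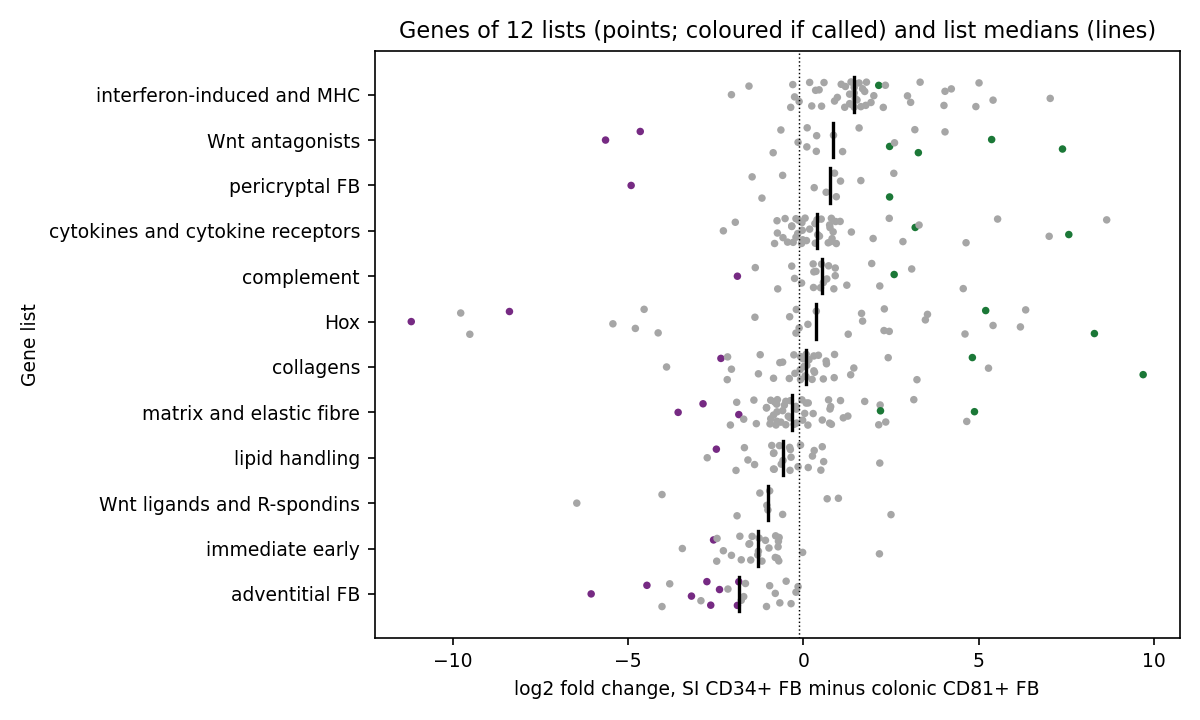
Log2 fold change, small intestinal CD34+ FB minus colonic CD81+ FB (x axis), of each tested gene of 12 gene lists (y axis), with called genes in green (small intestine higher) or purple (colon higher), a bar at the median of each list and a dotted line at the median of all genes (-0.11). The medians run from -1.84 for adventitial FB genes to 1.45 for interferon-induced and MHC genes.

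Of the genes of retinoic acid, 23 were tested, 7 separated with the small intestine above (against 13.96% of all genes) and 2 with the colon above (against 10.2%), and Aldh1a3, which makes retinoic acid from retinal, was the one called, for the small intestine (against 0.282%). Aldh1a3 (chr7:66390890-66427517) lay at 221, 280.4 and 145 CPM in the small intestine and at 13.5, 19.2 and 27.5 CPM in the colon, without overlap (3.41 ± 0.40 SE, edgeR adjusted p = 0.0178). Aldh1a2, another enzyme of this step, lay at 420.2, 477 and 403 CPM against 141, 61.2 and 20.3 CPM, with edgeR adjusted p = 0.131 for all 6 libraries, 0.0312 without colonic replicate 1 and 0.0535 to 0.548 without any other library. Lrat, which esterifies retinol for storage, had 56.6, 101 and 142 CPM and 0.161, 3.995 and 1.19 CPM (edgeR adjusted p = 0.0613, 0.0255 without colonic replicate 1 and 0.0549 to 0.299 without any other). All 3 genes had higher values in every small intestinal library, and the median of the list was 0.14. When colonic replicate 1 was left out, 4 genes of the list were called, all for the small intestine (against 1.38%). Cyp1b1, a cytochrome induced through the aryl hydrocarbon receptor, had 105, 117 and 61.9 CPM in the small intestine against 0, 1.17 and 0 CPM in the colon, present in one population and almost absent from the other, but just missed the threshold (edgeR adjusted p = 0.0507).

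Genes of lipid handling had -0.58 as their median log2 fold change over 27 tested, with 5 separated with the colon above (against 10.2% of all genes) and 1 with the small intestine above (against 13.96%). Hmgcs1, which makes HMG-CoA for cholesterol synthesis, was the one called (against 0.321%), with 13.02, 18.3 and 22.3 CPM in the small intestine against 111, 107 and 78.5 CPM in the colon (-2.48 ± 0.35 SE, edgeR adjusted p = 0.0325). Scd1, a fatty acid desaturase, lay at 47.8, 44.7 and 30.6 CPM against 378, 305 and 129 CPM and just missed the threshold (edgeR adjusted p = 0.05). Both enzymes were higher in each colonic library. The list had 4 calls, all for the colon, without colonic replicate 1 (against 0.86%).

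Channels and guidance molecules held called genes in both populations. Kcnn3, a calcium-activated potassium channel, lay at 1056, 822 and 843 CPM in the small intestine and at 221, 97.6 and 119 CPM in the colon (2.63 ± 0.36 SE, edgeR adjusted p = 0.031). Each small intestinal library was well above each colonic one. Abcc9, a regulatory subunit of ATP-sensitive potassium channels, was higher in the colon, with 30.4, 21.1 and 18.1 CPM against 131, 91.1 and 88.5 CPM (edgeR adjusted p = 0.0486). Of 33 tested channels and neurotransmitter receptors 10 separated with the small intestine above (against 13.96% of all genes) and 4 with the colon above (against 10.2%) (median 0.22). Of 22 tested semaphorins, their receptors, netrins and slits, Sema3c and Sema3d were called, both higher in the colon (against 0.321% of all genes, and, without colonic replicate 1, 1 for the small intestine and 3 for the colon, against 1.38% and 0.86%; median 0.08), and Sema3d lay at 33.8, 23.8 and 28 CPM against 199, 93.2 and 128 CPM (edgeR adjusted p = 0.0486).

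Some of the largest differences lay outside the lists. Higher in the colon were Lrrc8c, a subunit of volume-regulated anion channels, at 1.79, 1.304 and 3.85 CPM in the small intestine against 105, 88.3 and 98.6 CPM in the colon (edgeR adjusted p = 0.0117), and Cntn4, a contactin of the immunoglobulin family, at 1.04, 1.22 and 1.39 CPM against 35.3, 32.8 and 34.2 CPM (edgeR adjusted p = 0.0124). Gabrb2, a subunit of the GABA-A receptor, had 0.934 ± 0.207 CPM against 52.9 ± 33.4 CPM, and Cav1, the coat protein of caveolae, 14.6 ± 5.86 CPM against 216 ± 137 CPM (edgeR adjusted p = 0.0205 and 0.0344). Lrrc8c and Cntn4 were even across the colonic libraries, while Gabrb2 and Cav1 were highest in colonic replicate 1. The adhesion molecules Cdh13 (-3.91) and Opcml (-3.79), the peptidase Anpep (-2.21), the transcription factor Creb5 (-1.67), and Ildr2 (-3.91) and Fam129a (-2.60) were also called for the colon, with log2 fold changes as given.

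Rgs5, a regulator of G-protein signalling best known from pericytes, was far higher in the small intestine. Rgs5 (ENSMUSG00000026678, chr1:169655501-169695813) lay at 3829.6, 4076 and 3429 CPM in the small intestine and at 63.1, 29.8 and 23.6 CPM in the colon, a gap far wider than the spread of either (6.59 ± 0.47 SE, edgeR adjusted p = 0.0113). Its mean was 30724 ± 8526 CPM in small intestinal pericytes and 32958 ± 7836 CPM in colonic ones. Of the 11 pericyte markers 9 were tested, Rgs5 was called for the small intestine (against 0.282% of all genes) and Abcc9 for the colon (against 0.321%), 3 separated with the small intestine above (against 13.96%) and 1 with the colon above (against 10.2%), and the median was 0.16 against -0.11 for all genes. The markers summed to 4119.7, 4400.5 and 3739.6 CPM in the small intestine, with Rgs5 the most abundant and Cox4i2 at 0 in each library, and to 484, 340.2 and 293 CPM in the colon, with Pdgfrb the most abundant. Rgs5 made up most of each small intestinal sum, so the gap between the sums lay mostly in this gene. Cspg4, the pericyte proteoglycan NG2, lay at 60.2, 99.5 and 107 CPM against 6.77, 19.3 and 26.7 CPM, separated but not past the threshold (edgeR adjusted p = 0.11). The part of pericyte RNA in the difference of Rgs5 was not tested.

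Tmem176a and Tmem176b, neighbouring genes for membrane proteins on chromosome 6, were both higher in the small intestine. Tmem176a (chr6:48840919-48847071) lay at 824, 825 and 685 CPM in the small intestine and at 86.3, 99.1 and 45.4 CPM in the colon (3.32 ± 0.35 SE, edgeR adjusted p = 0.014). Tmem176b (chr6:48833818-48841496) lay at 589, 635 and 523 CPM against 46.7, 20.2 and 40.3 CPM (4.02 ± 0.37 SE, edgeR adjusted p = 0.0113). The small intestinal libraries were high and alike for both genes. Transcribed in opposite directions, they start close together: the first RefSeq promoter window of Tmem176a (GRCm38.p6 chr6:48841233-48841532, + strand) overlaps a window of Tmem176b (chr6:48841325-48841624, - strand) by 208 bases. For Tmem176b the RefSeq window with the highest end coordinate was chosen. The window of Tmem176a is printed to show this overlap, 5′ to 3′, with the shared bases in capitals.
Tmem176a: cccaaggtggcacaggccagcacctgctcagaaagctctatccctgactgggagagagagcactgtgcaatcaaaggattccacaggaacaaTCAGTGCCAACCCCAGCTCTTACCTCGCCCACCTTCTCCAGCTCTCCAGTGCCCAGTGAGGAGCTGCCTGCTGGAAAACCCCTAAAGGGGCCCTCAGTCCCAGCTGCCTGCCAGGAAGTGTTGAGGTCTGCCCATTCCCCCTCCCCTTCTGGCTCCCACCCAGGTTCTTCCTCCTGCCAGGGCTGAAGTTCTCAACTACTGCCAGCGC

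Further genes called for the small intestine were nearly silent in the colon. Hcar1, the lactate receptor, lay at 60.5, 66.9 and 60.4 CPM in the small intestine and at 0.806, 1.66 and 0.0848 CPM in the colon (edgeR adjusted p = 0.0319). S1pr3, a receptor of sphingosine 1-phosphate, lay at 63.9, 75.4 and 81.5 CPM against 1.37, 2.77 and 6.87 CPM (edgeR adjusted p = 0.0357). Both were found evenly in the small intestinal libraries. Tmem196 had 7.36, 9.13 and 5.88 CPM in the small intestine and no count in the colon, at least 32.9-fold higher against 3 counts per library (edgeR adjusted p = 0.048). Tmem196 was tested through the small intestine alone, so the filter left it hardly any other order. Cpxm2, a carboxypeptidase-like protein (5.13), Nkain4 (5.99) and Tmem132a (4.87) were called with the log2 fold changes given. Peg3, an imprinted gene for a zinc finger protein, was present in both, at 854, 714 and 685 CPM and 251, 176 and 274 CPM (1.68 ± 0.26 SE, edgeR adjusted p = 0.0429). Gm10925, with every 31-base stretch found in other genes too, is the other uncertain gene among the 92, at 1004, 1047 and 313 CPM against 0.403, 0.0615 and 2.03 CPM.

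Immunoglobulin genes were called in both directions, in cells from which lineage-positive cells had been sorted out. Igha, the heavy chain of IgA, lay at 36.5, 364 and 64.97 CPM in the small intestine and at 0.483, 0.861 and 0.424 CPM in the colon (edgeR adjusted p = 0.031), and Igkc, the kappa light chain, at 28.96, 201 and 50.3 CPM against 0.483, 0.0615 and 0.0848 CPM (edgeR adjusted p = 0.028). Small intestinal replicate 2 held the most of both. Ighm, the heavy chain of IgM, was higher in the colon, at 14.2, 7.56 and 7.91 CPM against 120.2, 47.2 and 77.1 CPM (edgeR adjusted p = 0.0486). Of 23 immune markers 13 were tested, Igkc and Ighm were called (against 0.603% of all genes), 5 separated with the small intestine above (against 13.96%) and 2 with the colon above (against 10.2%), and the median was 1.03 against -0.11 for all genes. They summed to 81.97, 252 and 105 CPM in the small intestine, with Igkc the most abundant and, among others, Cd3g, Mcpt1 and S100a8 at 0, and to 144, 74.8 and 116 CPM in the colon, with Ighm the most abundant and Cd3e, Cd3g, Adgre1, Itgax, Mcpt1, Kit, Tyrobp and Cd52 at 0. Their part in the result was not tested.

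Most markers of other cell types were low, and edgeR called 0 of the tested genes of each of the lists that follow. Smooth muscle markers (14 of 14 tested) summed to 738, 757 and 766 CPM in the small intestine (Mylk the most abundant) and to 688, 478 and 368 CPM in the colon (Hhip). Endothelial markers (8 of 12) summed to 57.2, 68.9 and 47.5 CPM, with Cldn5 at 0, and to 70.2, 49.2 and 68.1 CPM, with Pecam1 the most abundant in both. Epithelial markers (4 of 25) summed to 25.7, 37.8 and 31.3 CPM, with Epcam, Krt8 and 10 more at 0, and to 49.2, 12.5 and 33.99 CPM, with Krt8, Krt19 and 7 more at 0, and Slc26a3 was the most abundant in both. Of these 3 lists that of smooth muscle had the highest sums in every library. Of its 14 genes 7 separated with the small intestine above (against 13.96% of all genes) and 1 with the colon above (against 10.2%), with a median log2 fold change of 0.82 against -0.11 for all genes. DESeq2 called 4 for the small intestine and 1 for the colon (against 427 and 318 of all 15262 genes). Markers of glia and neurons (4 of 10) summed to 10.2, 9.39 and 9.83 CPM and 3.55, 8.05 and 15.5 CPM, and those of interstitial cells of Cajal (2 of 4, Etv1 the most abundant) to 28.9, 25.6 and 25.97 CPM and 45.4, 3.69 and 17.5 CPM. Mesothelial markers (4 of 12, Rspo1 the most abundant) summed to 28.6, 42.9 and 29.9 CPM and 19.4, 97.2 and 16.6 CPM, with Upk3b, Upk1b, Bnc1 and Muc16 at 0 in both. Lymphoid tissue stroma (6 of 8) gave 133, 147 and 55.2 CPM, led by Cxcl13, and 73.6, 27.5 and 30.7 CPM, led by Fcer2a, and erythroid genes (1 of 6) 2.45, 4.0 and 2.24 CPM and 0, 0.307 and 6.95 CPM, led by Alas2. Subepithelial FB markers (9 of 12) summed to 1460.3, 1476 and 1975 CPM, led by Tnc, and to 1951, 1647 and 1103 CPM, led by Plpp3, with Dmkn at 0 in both. Of the 9, 4 separated with the colon above (against 10.2% of all genes) and 1 with the small intestine above (against 13.96%). Their median log2 fold change was -1.01, against -0.11 for all genes, and 7 of the 9 were below 0. In the fit that leaves out colonic replicate 1, edgeR called 3 smooth muscle markers and 1 subepithelial FB marker, all for the small intestine (against 1.38%), and 0 of the other lists of this paragraph. Over all 17 lists without a call, 152 genes were tested, of which 35 had an unadjusted p below 0.05, DESeq2 called 17 and limma 4, against 14.28%, 4.88% and 1.14% of all genes. The part of other cells in the results was not tested.

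Immediate early genes, which are switched on within minutes of a stimulus, leaned to the colon. Of 27 tested, 26 had a log2 fold change below 0 (25 with upper-quartile normalization), 16 separated with the colon above (against 10.2% of all genes), and the median was -1.28. The list summed to 4975, 4196 and 6350.2 CPM in the small intestine and to 12111, 16442 and 11264 CPM in the colon, with Egr1 the most abundant. Nr4a1, an orphan nuclear receptor, was the one called by edgeR (against 0.321% of all genes), at 29.8, 29.6 and 50.8 CPM against 306, 199 and 138 CPM (-2.56 ± 0.41 SE, edgeR adjusted p = 0.048). Egr1, a zinc finger factor, lay at 2337, 1881 and 2665 CPM against 4847, 6747 and 4970.2 CPM (edgeR adjusted p = 0.0697), and Fosb, a subunit of AP-1, at 134, 131 and 352 CPM against 1135, 1080.5 and 767 CPM (edgeR adjusted p = 0.0755). All colonic values of the 3 genes were above all small intestinal ones. DESeq2 called 9 genes of the list (against 318 of all 15262 genes for the colon), and edgeR called 2 without colonic replicate 1 (against 0.86%). The call of Nr4a1 was lost, and 0 genes of the list were called, in 7 of 17 alternatives. These were length-scaled TPM, all 30 libraries in the fit, replicate number as a block, and the fits without colonic replicate 2 and without each small intestinal library.

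The difference between the tissues was then set beside that of other sorted populations present in both, which share no library with the 6. Pericytes were sorted by the same gate in both tissues, but PDGFRahi FB and Fgfr2+ FB by different gates. Fgfr2+ FB were taken as negative for CD34 in the small intestine and as positive for CD34 in the colon. In the FB pairs, too, tissue and gate cannot be told apart. Small intestinal and colonic PDGFRahi FB differed in 406 of 14558 tested genes (2.79%), Fgfr2+ FB in 251 of 14099 (1.78%), and pericytes in 0 of 13368 (0%) with edgeR, where 1091 genes had an unadjusted p below 0.05 and no other tool was run. Of the 43 genes called for the small intestine here, 13 were called the same way in PDGFRahi FB (30.2% of the 43 and 7.51% of the 173 called there) and 14 in Fgfr2+ FB (32.6% of the 43 and 13.1% of 107). Of the 49 called for the colon, 10 were called the same way in PDGFRahi FB (20.4% of the 49 and 4.29% of 233) and 10 in Fgfr2+ FB (20.4% and 6.94% of 144). Called the same way in all 3 FB pairs were, among others, Aldh1a3, Col6a5, Cxcl16, H2-Q7, Hoxc4, Nid2, Rgs5 and S1pr3 for the small intestine, and Cd55, Fam129a, Hoxa10, Hoxd13 and Igfbp6 for the colon. Hoxd13 had no count in the small intestine in either pair, and means of 10.4 ± 4.83 CPM and 15.4 ± 8.80 CPM in the colonic cells. Cxcl16 had a log2 fold change of 3.71 in PDGFRahi FB and 2.55 in Fgfr2+ FB. Called the opposite way in PDGFRahi FB were Peg3, Spon1, Sfrp1, Il1rl2, Chst15 and Col6a4, higher there in the colon (Chst15 was chosen after its values were seen), and Abcc9, higher there in the small intestine, and in Fgfr2+ FB none of the 92 was.

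Which differences belong to this pair more than to the others was tested on the 18 libraries of 6 populations, as the difference in these cells minus the mean difference of PDGFRahi FB and Fgfr2+ FB. The gates differed between the tissues, and the small intestinal CD34+ gate holds CD81+ FB and Igfbp5+ FB together. The test therefore cannot tell tissue from gate. Of 16575 genes, 163 (0.983%) were called, 122 with a value above 0 and 41 below. Sfrp1, Spon1 and Rgs5 were among those shifted toward the small intestine in this pair, and Ebf1, Igf1 and Abcc9 among those shifted toward the colon. Leaving out colonic replicate 3 raised the count to 268, and leaving out small intestinal replicate 3 lowered it to 108. DESeq2 called 469 genes.

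Sfrp1, with a log2 fold change of 2.46 here, had -2.11 in PDGFRahi FB and 0.21 in Fgfr2+ FB, so its test value was 3.42 ± 0.32 SE (edgeR adjusted p = 4.3e-06). Spon1 had -4.11 in PDGFRahi FB and -0.27 in Fgfr2+ FB (test value 4.39 ± 0.36 SE, edgeR adjusted p = 1.4e-06). In CD34+ FB both genes were thus above the colonic level, and in PDGFRahi FB below it. Rgs5 and Col6a5 were higher in the small intestine in all 3 pairs, but by more in this one (test values 4.46 ± 0.41 and 6.64 ± 0.55 SE, edgeR adjusted p = 4.2e-06 and 1.4e-06). For Ebf1 the value was -3.69 ± 0.40 SE (edgeR adjusted p = 2.4e-05), with 0.98 in PDGFRahi FB and -0.41 in Fgfr2+ FB, neither of which passed its test (edgeR adjusted p = 0.502 and 0.881), so Ebf1 was called for the colon in the CD34+ and CD81+ cells and in neither other pair. Igf1 had -2.50 ± 0.34 SE and Abcc9 -3.44 ± 0.40 SE (edgeR adjusted p = 0.000348 and 5.5e-05). Set against Fgfr2+ FB alone, the value was 2.25 for Sfrp1 and 2.46 for Spon1, still called, and -1.62 for Abcc9, no longer called. Pitx1 was absent or nearly so from small intestinal PDGFRahi FB (0 ± 0 CPM) and Fgfr2+ FB (0.0306 ± 0.0531 CPM), present in the colonic ones (90.2 ± 18.8 CPM and 93.8 ± 16.4 CPM), with 7.18 ± 1.88 CPM in CD34+ FB against 45.4 ± 44.2 CPM in CD81+ FB. Its tissue difference was smaller in the CD34+ and CD81+ cells (edgeR adjusted p = 0.000148). Angptl1, an angiopoietin-like secreted protein, overlapped here at 169, 139 and 167 CPM and 115, 120.0 and 208 CPM but was far higher in the small intestine in PDGFRahi FB (219 ± 49.8 CPM against 2.4 ± 3.03 CPM) and Fgfr2+ FB (59.5 ± 34.8 CPM against 0.246 ± 0.274 CPM) (test value -7.11 ± 0.92 SE, edgeR adjusted p = 0.000204).

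Colonic CD90+ FB were, like colonic Fgfr2+ FB, also sorted as positive for CD34, so small intestinal CD34+ FB were compared with them too. That comparison shares the small intestinal libraries with the one above, and values are only set side by side. It called 544 of 15588 genes (3.49%), 325 for small intestinal CD34+ FB and 219 for colonic CD90+ FB. Without small intestinal replicate 1, 2 or 3 the count was 295, 293 and 323. Ackr4 was higher in the small intestine there, by 4.42 ± 0.69 SE (edgeR adjusted p = 0.00395), against -0.21 toward colonic CD81+ FB. Igfbp5 had -0.23 and Adamdec1 0.23 toward CD90+ FB, against 1.64 and 2.58 toward CD81+ FB. Sema3c had -1.31 against -2.64, Rgs5 4.8 against 6.59 and Thy1 -5.90 against -4.91. By these values, Ackr4 of the small intestinal cells was like that of colonic CD81+ FB, while Igfbp5 and Adamdec1 lay nearer to colonic CD90+ FB. Colonic CD81+ FB and CD90+ FB themselves differed in 34 of 15156 genes (0.224%) with edgeR, 28 higher in CD81+ FB and 6 higher in CD90+ FB. In that fit 1553 genes had an unadjusted p below 0.05, and no other tool was run. It holds the colonic CD81+ FB libraries, which stood apart from each other.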

How the data were processed

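Bulk RNA-seq libraries of sorted mouse cells were read from the deposited kallisto tables, in which the authors give, per transcript, an estimated count and a TPM. By the submitters' processing notes reads were trimmed with Trim Galore 0.4.0, checked with FastQC 0.11.2 and quantified with kallisto 0.42.5 against mm10. Of 98492 transcripts 97116 were matched to 32342 genes of GENCODE for GRCm38, which held 97.81% to 99.19% of the counts of each library. The estimated counts of a gene's transcripts were added up and rounded, and a gene with 6 or more counts in 3 or more libraries entered the test with edgeR 4.0.16 in R 4.3.3 (TMM, quasi-likelihood test, two-sided, Benjamini-Hochberg adjustment over all genes tested). The SE was taken as the size of the log2 fold change over the root of its F statistic. Floors of 3 counts cover counting error only. The code was tested on simulated data.

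The alternatives tried were upper-quartile and RLE normalization, DESeq2 1.42.0, a filter of 10 counts or none, fits of 21 or 30 libraries, counts rebuilt from length-scaled TPM, a replicate block, thinned counts, other fold thresholds, each library left out, and, chosen after seeing the data, limma 3.58.1 with library weights. A gene is called uncertain where at least 50% of its 31-base stretches occur in other genes, as in 800 of the 15262 tested. Members and the 38 gene lists were chosen with earlier results of these data known. Genes are named if they are on a list, if, in a direction, their fold change is among the 20 largest of called genes (without overlap, mean of at least 5 CPM) or their level among the 10 highest, among the 10 called in all 3 FB pairs with the largest fold change, or among the 10 called in the fit of 18 libraries with the largest difference. No library was left out.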

Additional observations from a re-analysis of the deposited data

Results flagged for a closer look

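In a fit of 18 libraries, 163 genes had a tissue difference between small intestinal CD34+ FB and colonic CD81+ FB that differed from the mean tissue difference of PDGFRahi FB and Fgfr2+ FB, by edgeR's test of that difference. Values here are log2 differences of the tissue differences, with values above 0 shifted toward the small intestine in the CD34+ and CD81+ pair. Where a population of the fit had no count, the value depends on the prior count. Tissue and gate cannot be told apart in these values.

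Among FB markers and matrix genes the values were Igfbp6 7.28, Igfbp5 2.41, Fbln1 5.15, Col6a5 6.64, Col6a4 4.82, Spon1 4.39, Lama1 5.02, Has2 -3.29 and Adamts5 -2.90. Transcription factors gave Hoxa9 6.32, Hoxb3 -3.92, Ebf1 -3.69, Ebf3 -6.11 and Pitx1 9.21. Genes of Wnt signalling gave Sfrp1 3.42, Dkk2 4.87, Shisa2 7.01, Shisa3 3.70 and Wnt2b 2.90. Growth factors, receptors and immune genes gave Igf1 -2.50, Ereg 2.86, Il1rl2 3.40, Tnfrsf19 7.11, C7 -5.18, Ccl11 -4.49, Hcar1 5.89 and Angptl1 -7.11. The other named genes gave Rgs5 4.46, Abcc9 -3.44, Fam129a 5.39, Cpxm2 5.53, Nkain4 11.43, Tmem196 10.51, Tmem176a 3.44, Tmem176b 3.73, Peg3 2.35 and Chst15 4.37. The uncertain genes Oas1g and Gm10925 gave 8.41 and 10.12.

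Over 12 alternatives none of these 39 genes reversed, and 22 stayed called in each. The call was lost in 9 alternatives for Gm10925, 6 for Ebf3, 4 for Igfbp5, 3 for Oas1g and 2 for Cpxm2. With Fgfr2+ FB alone as the other pair 16 of the 39 were not called, among them Hoxa9, Shisa2, Wnt2b, Ereg, Il1rl2, Tnfrsf19, C7, Col6a4, Abcc9, Tmem176a, Tmem176b and Peg3, which stayed called in the other 11. Over the alternatives the values ranged from 0.99 to 3.84 for Igfbp5, 1.82 to 7.82 for Col6a4, 2.46 to 6.32 for Spon1, 2.67 to 7.38 for Lama1, 2.25 to 4.58 for Sfrp1, 1.48 to 4.24 for Ereg, 1.38 to 5.42 for Il1rl2, 4.15 to 10.06 for Tnfrsf19, -8.01 to -2.34 for C7, -6.76 to -2.23 for Ccl11, -5.26 to -1.62 for Abcc9, 3.03 to 7.76 for Fam129a, 2.00 to 4.87 for Tmem176a, 2.09 to 5.36 for Tmem176b and 0.66 to 4.05 for Peg3, and stayed within 1.5 times of the value given for the others.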

How the results depend on the processing

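The count of 92 genes became 745 with DESeq2, 358 with the 21 FB libraries in the fit, 47 with length-scaled TPM, and 174 with limma and library weights, an alternative chosen after seeing the data. It stayed within 1.5 times of 92 with RLE (92) and upper-quartile normalization (123, of which 76 for the small intestine and 47 for the colon, against 43 and 49), no filter (136), a filter of 10 counts (124), all 30 libraries (133, of which 87 for the small intestine and 46 for the colon), thinned counts (118), and fold thresholds of 1 (93), 2 (86) or none (93). Similar counts hide changes of genes: of the 92, all 30 libraries kept 50, upper-quartile normalization 85, thinned counts 90, RLE 91, and no filter and the filter of 10 counts all, while length-scaled TPM kept 46, limma 76, the 21 FB libraries 85 and DESeq2 all. With replicate number as a replicate block the count was 92 too, with 71 of the 92 kept: 48 were for the small intestine and 44 for the colon, 60 of the 71 named called genes were called and 11 were not (Sfrp2, Igf1, Abcc9, Hmgcs1, Nr4a1, Creb5, Cpxm2, Nkain4, Tmem196, Peg3 and Oas1g). Both tissues came from 3 individual mice by the labels, which tie no mouse to a number. By the study's account the same mice gave the sorted subsets of both tissues. The profiles of same-numbered libraries correlated, as deviations from the population means, with an r of 0.0126, -0.0126 and 0.0647 across genes, and not every library correlated best with its own number. Leaving out 1 library gave 0 to 339 calls. Against colonic CD90+ FB the count of 544 ranged from 293 to 634 with 1 library left out. The count of 163 in the fit of 18 libraries was 469 with DESeq2, 267 without a filter and 108 to 268 with 1 library left out. The cause was not tested.

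With all 6 libraries in the fit, the alternatives called 3 to 13 adventitial FB genes for the colon (8 in the main fit), 3 to 7 Wnt antagonists for the small intestine (4), 1 to 13 interferon-induced and MHC genes for the small intestine (1), 0 to 9 immediate early genes for the colon (1), and 1 to 8 Hox genes for the small intestine (2) and for the colon (2). Without any one small intestinal library each of these counts was 0, though Hoxc5 and Shisa2, nearly absent from the colon, could not be tested there.

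None of the 71 named called genes reversed in any setting, and 25 stayed called in every setting that kept all 6 libraries. Named genes that were not called reversed as follows. With upper-quartile normalization the log2 fold change was 0.03 for Ackr4, 0.07 for Pdgfra, 0.27 for Pdpn and 0.13 for Hoxb3. With library weights it was 0.28 for Pdpn, 0.28 for Hoxb3 and -0.01 for Angptl1. With the replicate block it was 0.06 for Pdpn, 0.49 for Rspo3 and 0.01 for Hoxb3. Pdgfra had 0.14 with length-scaled TPM, and Pdpn 0.02 with all 30 libraries and 0.00 with thinned counts. With 1 library left out the values ranged from -0.37 to 0.07 for Ackr4, -0.20 to 0.40 for Pdpn, -4.61 to 1.82 for Rspo3, -0.49 to 0.57 for Hoxb3 and -0.05 to 0.42 for Angptl1. Without colonic replicate 1 they were 0.40 for Pdpn, 0.57 for Hoxb3 and -0.05 for Angptl1, without colonic replicate 2 they were 0.07 for Ackr4 and -0.03 for Angptl1, without colonic replicate 3 1.82 for Rspo3, and without small intestinal replicate 2 0.08 for Pdpn. The cause was not tested. With 3 libraries of each population and colonic replicates that vary more, genes that missed the threshold may still differ, and genes with few counts in all 6 libraries were not tested.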

Other observations

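Ligands of the BMP and TGF-beta families were expressed by both populations, with Bmp4 the most abundant in each. Of 17 tested, 7 separated with the small intestine above (against 13.96% of all genes) and 2 with the colon above (against 10.2%), and the median log2 fold change was 0.36. The list summed to 2292, 2242 and 2207 CPM in the small intestine against 3066, 2214 and 1426 CPM in the colon, with overlap. Of 16 tested BMP antagonists, led by Fstl1, 3 separated with the small intestine above and 4 with the colon above, with a median of -0.30 and sums of 3430.2, 2876 and 3042 CPM in the small intestine against 5642, 4782 and 5246 CPM in the colon. The summed antagonists were higher in every colonic library. Genes of the hedgehog pathway, led by Ptch1, had a median of -0.10 over 11 tested and sums of 1337, 1636 and 1361 CPM in the small intestine against 2441, 1834 and 1232 CPM in the colon. The aryl hydrocarbon receptor and its partners, led by Arnt, had a median of -0.06 over 7 tested, and sums of 310.3, 319 and 249 CPM in the small intestine against 219, 162 and 168 CPM in the colon, without overlap.

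Genes of prostaglandin metabolism, led by Hpgd, which degrades prostaglandins, had a median of 0.03 over 16 tested and summed to 625, 541 and 541 CPM in the small intestine against 778, 639 and 541 CPM in the colon. Heat shock genes had a median of -0.09 over 16 tested and summed to 3121, 2707 and 4444 CPM in the small intestine against 3088, 5020.5 and 4551 CPM in the colon, and proliferation genes had -0.40 over 12 and 98.9, 94.9 and 94.99 CPM in the small intestine against 167, 81.9 and 147 CPM in the colon. These 3 lists thus overlapped between the populations. None of the genes of these 7 lists was called by edgeR. In the fit without colonic replicate 1 it called a BMP or TGF-beta ligand in each direction, 1 hedgehog gene for the colon, and for the small intestine 1 BMP antagonist, 1 gene of the aryl hydrocarbon receptor list and 1 of prostaglandin metabolism (against 1.38% of all genes for the small intestine and 0.86% for the colon). The counts at an unadjusted p below 0.05 and by DESeq2 and limma are among those of the 17 lists without a call in the results.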
